A study of Gasterosteus aculeatus with 29 samples.

Results

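The comparison is between 16 of the 29 three-spined stickleback (Gasterosteus aculeatus) whose whole brains were profiled by RNA sequencing. All 16 fish met predation risk themselves as juveniles. In 7 of them, called both exposures below, the father had also met predation risk while he tended the brood. In the other 9, called personal exposure only, the father had not. Fish were placed in these groups by their source labels, and their values were not used for it. Each library is the whole brain of 1 fish, the fathers are M11, M15, M42 and M43 on the exposed side and M8, M20, M31, M33 and M41 on the unexposed side, and the labels give no age beyond exposure as juveniles. The full design crossed the father's experience with that of the offspring, and it also has 8 fish with paternal exposure only and 5 with neither.

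In this species the male builds the nest and alone guards and fans the eggs and fry, so that a father's encounters with predators fall in the period in which he shapes the early environment of his young. Offspring can also learn of predators from their own encounters. The comparison asks whether the father's experience still marks the brain transcriptome of young that have met the risk themselves. In whole-brain RNA many cell types are mixed, and fewer cells of a type and less RNA per cell cannot be told apart.

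Both exposures held 5 females and 2 males, and personal exposure only held 5 females and 4 males. These numbers count both replicate 7 as a female, although its label says male. For each of the 16 fish, genes that differ between the labelled sexes by at least 1 log2 unit were called in all the other libraries (limma, adjusted p under 0.05), and the fish was set against the means of the sexes. Both replicate 7 was nearer to the female mean in 178 of 188 such genes, or 94.7%. In the 9 fish labelled female the share was 79.1% to 97.5%, and in the other 6 labelled male it was 0.787% to 21.6%. The 2 males with both exposures are brothers, sons of M15, whereas the 4 males with personal exposure only had 3 fathers.

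The gene table held 2244609 to 55155451 reads per fish in both exposures (median 13815032) and 2844706 to 47411814 in personal exposure only (median 6015286). On the log2 scale the read totals differed by 0.46 between the groups (two-sided exact permutation test over fish, p = 0.519). Over fathers' means they differed by 0.83 (the same exact test, p = 0.389). The 10 genes with most reads took 3.91% ± 0.446 of the reads (SD, n = 7) and 3.56% ± 0.254 (SD, n = 9), with p = 0.0698 in the same exact test over fish and p = 0.103 over fathers' means, where the smallest p that 4 against 5 fathers allow is 0.00794. The ranges of the groups overlapped, at 3.22% to 4.63% and 3.22% to 3.90%, neither test passed 0.05, and the part of this share in the gene results was not tested. The lanes of the sequencer, read from the library titles, hold both groups except lane 7, with 3 fish of personal exposure only.

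No gene passed the adjusted threshold for the father's exposure in these fish. Of 16660 genes tested with limma on log2 CPM (the log2 of a gene's reads scaled to the library's size), 0 passed an adjusted p of 0.05, which is 0% of the genes. The smallest adjusted p was 0.192. An unadjusted p below 0.05 was found for 813 genes, or 4.88%, where a share of 0.05 of all genes is 833. Of these, 435 (2.61%) were higher in both exposures and 378 (2.27%) were lower. An unadjusted p below 0.01 was found for 136 genes, or 0.816%, 76 of them higher and 60 lower. On whole reads recovered from the table, limma-voom also called 0 genes. There 1179 had an unadjusted p below 0.05, which is more than those 833.

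**Figure D1:**
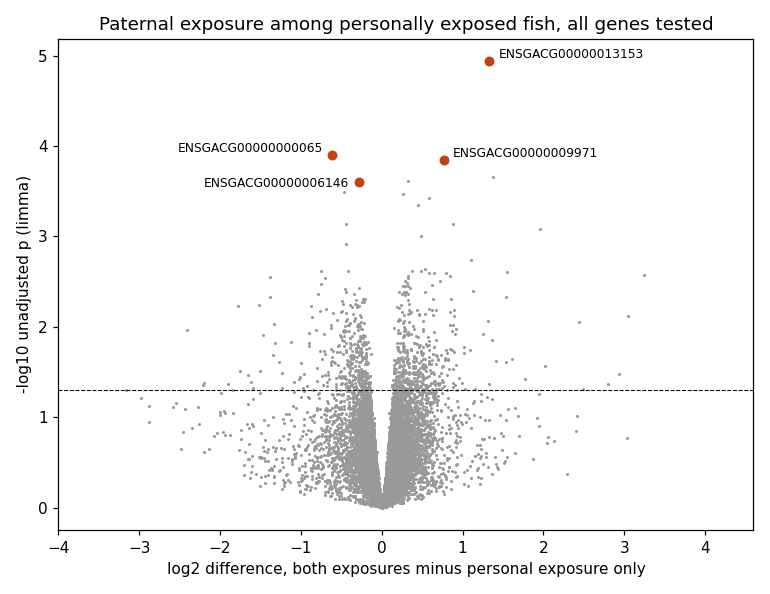
Each point is 1 of 16660 genes, with the log2 difference between both exposures and personal exposure only on the x axis and −log10 of the unadjusted p of limma on the y axis. The dashed line marks an unadjusted p of 0.05, and the 4 genes named in the text are in red.

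The sex term of the same fit in the same 16 fish was read as well. Limma called 393 genes by sex, or 2.36% of those tested, of which 368 (2.21%) were higher in females and 25 (0.15%) were lower. Both replicate 7 counts as female here because of its values of such genes, so that these counts were not made fully independently of the sex assignment. As fitted, M31 was the only father with a daughter and a son among these fish. Differences between the sexes and between fathers can therefore hardly be told apart in these counts.

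The intervals of the fit give a range for the difference between the groups in each gene. For 14330 genes, or 86.0%, the 95% interval of the difference lay wholly within a 2-fold change in either direction. Within a 1.5-fold change lay the intervals of 11432 genes, or 68.6%. These are intervals for single genes, with no adjustment for their number. They use 1 sibling correlation (0.208) for every gene, so they are too narrow where siblings are more alike than that. Their degrees of freedom (13 residual, 16.8 after limma's pooling over genes) count fish and not fathers. Intervals can therefore be too narrow, and p-values too small, in other genes as well. The shares of genes within 2-fold and 1.5-fold can be too high. Exposure was set by father, 4 against 5, and other differences between these families are not separated from it. The intervals were narrow for abundant genes and wide for rare ones. In the tercile of genes with the highest mean level (4.35 to 11.48 log2 CPM) the median half-width was 0.21 log2 units, and 98.2% of intervals lay within 2-fold. In the lowest tercile (up to 2.59 log2 CPM) the half-width was 0.57, and 63.9% lay within 2-fold. An unadjusted p below 0.05 was found in 4.83% of the lowest tercile, 4.70% of the middle and 5.11% of the highest.

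The gene identifiers are not paired with symbols in the files, and none of them matched the reference table, so the genes below have no name or role here. They are the 2 higher and the 2 lower in both exposures with the smallest p-values among genes with a mean of at least 1 log2 CPM. None passed the adjusted threshold, and their differences are descriptions of genes picked for them.

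ENSGACG00000013153 had the smallest p-value of all genes. With both exposures its level was 1.71 to 3.13 log2 CPM (median 1.91), and with personal exposure only it was 0.44 to 1.62 (median 0.99). All 7 fish with both exposures lay above all 9 with personal exposure only, by a gap of 0.089 log2 units between the nearest fish. It was 1 of 4 genes, or 0.024% of those tested, in which the groups did not overlap with the higher values in both exposures. In the opposite direction there were 0 such genes. Of the 11440 ways to split the fish into 7 and 9, 1 gives such an order in any given gene, and siblings are not independent. The means were 2.29 ± 0.58 (SD, n = 7) and 1.05 ± 0.41 (SD, n = 9), and the sex-adjusted difference was 1.33 ± 0.22 (SE, limma), or 2.52-fold, with a 95% interval of 0.87 to 1.79 and an adjusted p of 0.192.

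Within both exposures the family means of ENSGACG00000013153 ranged over more than a log2 unit, and siblings also differed, with 2.74 and 1.91 in the offspring of M11. The 2 sons of M15 had 3.13 and 2.81 log2 CPM and a family mean of 2.97. The mean was 2.33 for M11, 1.86 for the single fish of M42 and 1.78 for those of M43. Among unexposed fathers the family means were close together, from 0.94 for M20 and M8 to 1.02 for M41, with the single son of M33 at 1.62. Siblings differed on this side too, with 0.44 and 1.60 for M31 and 1.27 and 0.61 for M20. They were closer for M8 (0.89 and 0.99) and M41 (0.84 and 1.19). Fish of the same fathers without their own exposure are a further set of libraries. There the daughter of M15 had 2.97, the mean was 2.02 for M42 and 1.88 for M11, and the daughter of M43 had 1.12, which lies within the range of personal exposure only. These values rest on few reads, from 32 to 428 per fish with both exposures and from 12 to 158 with personal exposure only.

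ENSGACG00000009971 was also higher in fish with both exposures. Its level was 2.46 to 3.20 log2 CPM (median 2.77), against 1.70 to 2.54 (median 1.85) with personal exposure only. One fish of personal exposure only, a daughter of M41 with 2.54, lay within the range of both exposures, and the other 8 lay below it. From the other side, 2 fish with both exposures lay below that fish. The means were 2.75 ± 0.27 (SD, n = 7) and 1.96 ± 0.27 (SD, n = 9), a difference of 0.77 ± 0.16 (SE, limma), or 1.70-fold, with a 95% interval of 0.44 to 1.1 and an adjusted p of 0.699. Here the families of exposed fathers lay close together, from 2.46 (M42) to 2.86 (M11), and M41 stood above the other unexposed fathers with 2.38 against 1.72 to 1.95.

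ENSGACG00000000065 was lower in both exposures, at 3.08 to 3.56 log2 CPM (median 3.35), than in personal exposure only, at 3.54 to 4.48 (median 3.97). A single fish of each group lay within the range of the other. The spread was smaller with both exposures (3.33 ± 0.15, SD, n = 7) than with personal exposure only (3.92 ± 0.30, SD, n = 9). This difference in spread was not tested. The sex-adjusted difference was -0.62 ± 0.12 (SE, limma), with a 95% interval of -0.88 to -0.35 and an adjusted p of 0.699. The highest family was M41 with 4.31, then M31 with 4.05, and the lowest was M11 with 3.18.

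ENSGACG00000006146, the most abundant of these genes, had 5.73 to 6.11 log2 CPM (median 5.96) with both exposures and 6.10 to 6.32 (median 6.22) with personal exposure only. Again 1 fish of each group lay within the range of the other. The difference was small, at -0.29 ± 0.062 (SE, limma; 95% interval -0.42 to -0.16, adjusted p = 0.699). Family means ran from 5.85 (M15) to 6.05 (M43) on the exposed side and from 6.16 (M33) to 6.30 (M31) on the other. In fish without their own exposure they ranged more widely. There they were 5.73 (M42) to 6.29 (M9) with paternal exposure only and 5.99 (M20) to 6.32 (M8) with neither. Between 288 and 8355 reads per fish stand behind these values.

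**Figure D2:**
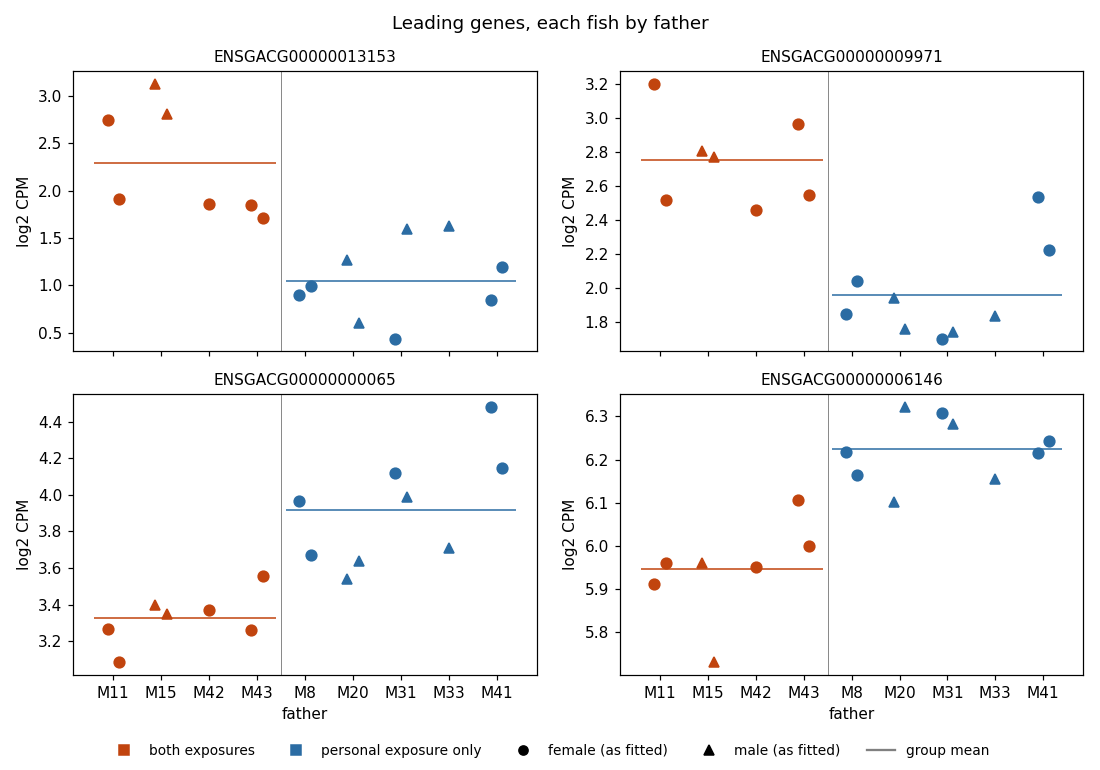
Log2 CPM of each of the 16 fish for the 4 genes with the smallest p-values in either direction, ordered by father, with the fathers of both exposures at the left. Horizontal lines are group means, and in each panel the family means of the groups do not overlap although single fish do in 3 of the 4 genes.

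The unit that was exposed or not is the father, and there were 4 against 5. In all 4 genes the means of the families of exposed fathers lay on one side of those of unexposed fathers. Such separation of family means was found in 162 genes (0.972%) with higher and 117 genes (0.702%) with lower values in both exposures, so it is not particular to these genes. Of the 126 ways to split the fathers into 4 and 5, 1 gives such an order in a given direction in any given gene. That is a share of 0.00794, and both percentages are near it. With 1 sex-adjusted value per father, limma called 0 genes, with a smallest adjusted p of 0.339. An unadjusted p below 0.05 was found in 1288, more than the 833 that a share of 0.05 gives. The differences of the 4 genes were then 1.28 ± 0.20 for ENSGACG00000013153, 0.74 ± 0.15 for ENSGACG00000009971, -0.61 ± 0.13 for ENSGACG00000000065 and -0.29 ± 0.058 for ENSGACG00000006146 (SE, limma, adjusted p of 0.45 to 0.498). In this fit the sex adjustment came from the same fish and was taken as known, so its SE and p-values can be too small. Fathers with a single fish weighed as much as the others.

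The consensus correlation of siblings over genes in the fit was 0.208. Over 14273 genes, what was left after fitting group and sex correlated between the 7 sibling pairs with a median r of 0.0040 and a range of -0.346 (the sons of M15) to 0.258 (the daughters of M41), and 4 pairs were above 0. Over 50 pairs of the same group with different fathers the median was -0.131 (-0.555 to 0.362). These r are across genes of libraries, and removing group means makes pairs of the same group negative on average.

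**Figure D3:**
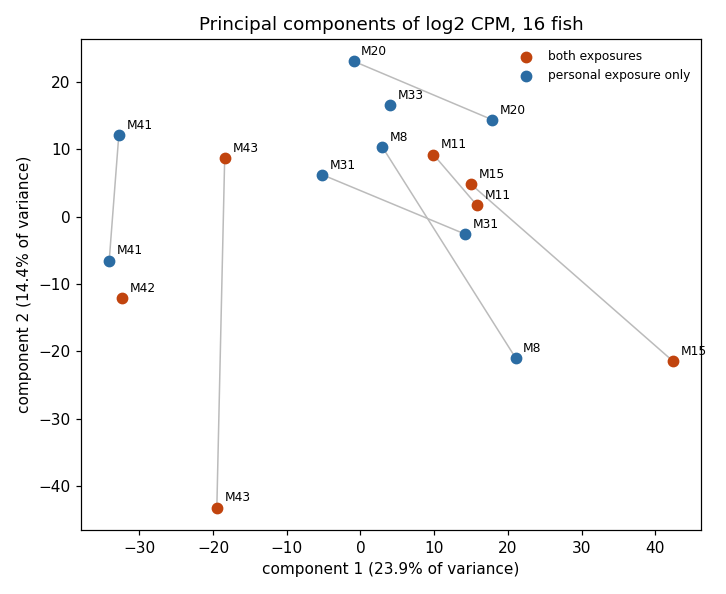
Scores of the 16 fish on the first and second principal components of log2 CPM over genes with a mean of at least 1, labelled by father, with grey lines between siblings. The groups are interspersed, and both replicate 2 (M43) and both replicate 3 (M15) lie farthest out. The fish of M41, M42 and M43 lie at the low end of the first component.

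The first principal component held 23.9% of the variance and the second 14.4%, and the groups were interspersed on both. On the first, both exposures ran from -32.3 to 42.4 and personal exposure only from -34.1 to 21.0. By father, the fish of M41, M42 and M43 lay at -34.1 to -18.4 on it, and those of all other fathers at -5.19 to 42.4. What set these families apart on the first component was not tested. Both replicate 3, a son of M15, was at the upper end, and both replicate 2, a daughter of M43, was lowest on the second component at -43.2. These fish also had the widest spread of genes around the median library in their group, with interquartile ranges of 0.481 and 0.443 log2 units against 0.278 to 0.420 in the other 5.

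The number of genes with an unadjusted p below 0.05 depended on single fish, in either direction. Without both replicate 3 the number was 484 instead of 813, and without its father M15 it was 519. In females alone (5 against 5) it was 403. Without personal only replicate 3 it was 1190. Adjusted calls stayed at 0 in each of these fits. In males alone the number was 2140, and 36 genes were called. That fit sets 2 sons of M15 against 4 males of 3 fathers, so father and exposure cannot be told apart in it. For ENSGACG00000013153 the difference ran, with any 1 fish or any 1 father left out, from 1.18 without M15 to 1.44 without M43.

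**Figure D4:**
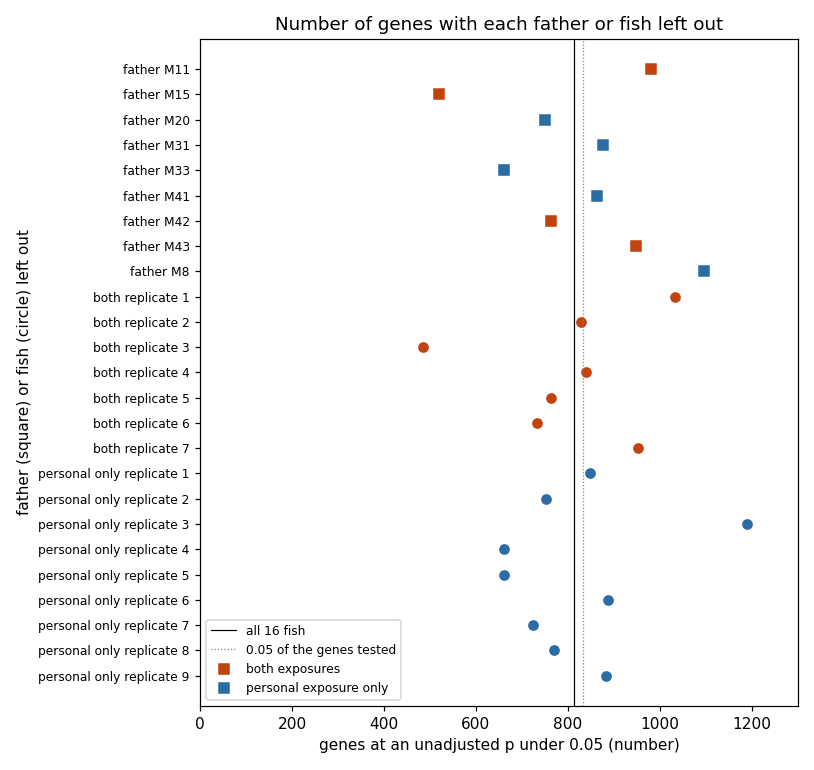
Count of genes whose unadjusted p was below 0.05 after leaving out each father (squares) or each fish (circles), coloured by group. The solid line marks the 813 genes with all 16 fish and the dotted line 0.05 of the genes tested, and the lowest values are those without both replicate 3 and without father M15.

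Lanes 4, 5, 6 and 8 hold fish of both groups, and the values within each lane are given as a description, since the 4 genes were picked for their difference in these same fish. For ENSGACG00000013153, whose groups do not overlap, the direction within a lane is fixed by that. For ENSGACG00000013153 the difference was 1.41 in lane 4, 1.17 in lane 5, 0.68 in lane 6 and 0.32 in lane 8, where each group had 1 fish. For ENSGACG00000009971 the differences were 0.52 to 0.99, for ENSGACG00000000065 they were -0.90 to -0.39 and for ENSGACG00000006146 they were -0.34 to -0.13. With lane as a term in the fit limma called 0 genes (smallest adjusted p = 0.975). In that fit ENSGACG00000013153 had a difference of 1.11 ± 0.23.

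Whether the father's exposure acted differently on daughters and sons was tested from group-by-sex means, and limma called 0 genes, or 0%, and 788 (4.73%) had an unadjusted p below 0.05. In females ENSGACG00000013153 had 2.02 log2 CPM with both exposures and 0.87 with personal exposure only (5 against 5 fish), and in males 2.97 and 1.27 (2 against 4). The difference of these effects, female minus male, was -0.45 ± 0.45 (SE, limma, adjusted p = 0.932). For ENSGACG00000000065 females had 3.31 and 4.08 and males 3.37 and 3.72, and the effects differed by -0.39 ± 0.25 (adjusted p = 0.929). The males with both exposures all come from M15, so sex and father cannot be told apart on that side. With both replicate 1 left out 11 genes were called by this test, and with both replicate 3 left out 2 were called. These fits were added after seeing the data. In them 1 male with both exposures is left, and its spread is borrowed from the rest.

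The effect of the father's exposure in fish that had met no risk themselves comes from other libraries, 8 with paternal exposure only and 5 with neither, but mostly from the same fathers. In a fit of those 13 fish limma called 0 genes, or 0%, and 1986 (11.9%) had an unadjusted p below 0.05. Without neither replicate 3, a library that stands apart with a gene spread of 1.52 log2 units, these were 0 (0%) and 1495 (8.97%). The sibling correlation was -0.054 in the fit of 13 fish and 0.068 without neither replicate 3, against 0.208 in personally exposed fish. A lower value makes the SE of a difference between fathers smaller, so the shares of genes are not on equal terms. ENSGACG00000013153 had 1.81 ± 0.98 log2 CPM (SD, n = 8) with paternal exposure only and 1.02 ± 0.52 (SD, n = 5) with neither, a difference of 0.82 ± 0.44 (SE). It was 0.87 ± 0.51 without neither replicate 3. The 2 daughters of M9, a father with no fish in both exposures, had -0.11 and 2.69. ENSGACG00000009971 differed by 0.22 ± 0.17, and by 0.36 ± 0.14 without neither replicate 3. ENSGACG00000000065 had nearly the same mean in these groups, 3.59 ± 0.27 (SD, n = 8) and 3.59 ± 0.29 (SD, n = 5), with a difference of -0.0085 ± 0.16. Without neither replicate 3 that difference was 0.10 ± 0.15. ENSGACG00000006146 had a lower mean with paternal exposure only, at 5.99 ± 0.23 log2 CPM (SD, n = 8), than with neither, at 6.12 ± 0.21 (SD, n = 5). The ranges overlapped, at 5.65 to 6.30 and 5.92 to 6.44. The highest fish with neither was neither replicate 3, at 6.44, and the others had 5.92 to 6.19. Part of the lower mean therefore rests on that library.

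**Figure D5:**
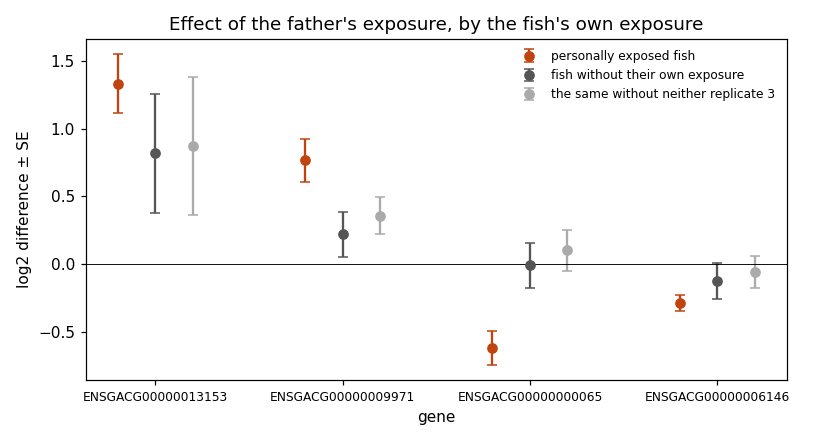
Sex-adjusted log2 difference ± SE between offspring of exposed and unexposed fathers for the 4 genes, in personally exposed fish (red, 16 fish) and in fish without their own exposure (dark grey, 13 fish; light grey, without neither replicate 3). The genes were chosen for their values in the personally exposed fish, and the red points are the farther from 0 in each gene.

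Whether these effects differ with the fish's own exposure was tested as an interaction in a fit of all 29 fish. Limma called 0 genes, or 0%, and 2017 (12.1%) had an unadjusted p below 0.05. With neither replicate 3 left out it called 0 as well, and 741 had such a p. The interaction was -0.55 ± 0.19 (SE) for ENSGACG00000000065, 0.54 ± 0.20 for ENSGACG00000009971, 0.40 ± 0.47 for ENSGACG00000013153 and -0.12 ± 0.12 for ENSGACG00000006146, at adjusted p of 0.409 to 0.681. Without neither replicate 3 the adjusted p of these genes were 0.995 to 0.998, with interactions of -0.66 ± 0.18, 0.39 ± 0.18, 0.33 ± 0.50 and -0.19 ± 0.11. The genes were picked for their difference in personally exposed fish, which is 1 side of this contrast.

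The genes with the smallest p-values in personally exposed fish can be followed in the fish without their own exposure. Of the 813 genes with an unadjusted p below 0.05, 532 had the same sign there, or 65.4%, and of all genes tested 55.7% did. Without neither replicate 3 610 of the 813 and 59.9% of all genes did. The 435 genes that were higher with both exposures, at a median of 0.40 log2 units, had a median of 0.14 in the other fish, and the 378 that were lower, at -0.33, had a median of -0.096. Over all genes tested, the 8576 that were higher had a median of 0.048 in the other fish and the 8084 that were lower had -0.052. Of the 813, 121 had an unadjusted p below 0.05 in the other fish with the same sign and 5 with the opposite sign. Over all 16660 genes the corresponding numbers were 1451 and 535. The p-values in the other fish come from the limma fit with a sibling correlation of -0.054. The comparisons share no library. They share fathers M11, M15, M42 and M43 on the exposed side and M8, M20 and M33 on the other, so that what differs between these families whatever the exposure, and an effect of the exposure, cannot be told apart here. Genes are not independent replicates, and no p is given for these shares.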

How the data were processed

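Whole-brain poly-A RNA was sequenced single-end, per the labels' protocols. The submitters' processing notes list TopHat2 2.0.8, CASAVA 1.8.2, edgeR and HTSeq 0.6.1, and a build, NCBIM37, whose name belongs to mouse. The stickleback build, annotation release and strand setting are not given in the sources used here. Overlapping and near-identical genes are therefore uncertain. The authors deposited 1 table of log2 CPM values for 17730 genes, with a floor of -6.77 (0 reads plus a prior). The floor is the same in every library, so the prior in reads grows with the library's size. A prior of 0.25 reads holds at the mean size. The prior makes fold changes of genes with few reads too small.

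On the linear scale the values of a library are multiples of 1 step, and 100% came out as whole reads (tolerance 0.01), which gave the depths. Counting error is all that such reads describe. The library sizes used for the scaling were larger than these depths. The values of a library summed to 45.1% to 47.0% of that size in the 16 fish, and to 61.3% in neither replicate 3. No 2 of the 16 libraries looked like copies: the most alike pair had 3.65 times the sampling variance.

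A gene was tested where 5 or more of the 29 libraries exceeded 0 log2 CPM, which left 16660. Limma-trend was run in R 4.3.3 with limma 3.58.1 and statmod 1.5.0, using the log2 values of the 16 fish, with group and sex as terms and father as a random block. Both replicate 7 was entered as female. P-values were adjusted by Benjamini-Hochberg across every gene tested. Named genes are the 2 higher and 2 lower with the smallest p among those with a mean of at least 1 log2 CPM. Replicates are numbered in deposition order. Alternatives covered the libraries in the fit, block, sex, lane, filters, scaling, prior and weights, 1 value per father, and leaving out each fish and each father. The procedure was tested on simulated data. Of the 9 paternally exposed fish without their own exposure in the labels' protocols, 1 was not analysed here. The comparison, the gene rule and the alternatives were chosen with earlier results of these data known. Gene lists and cell type markers could not be used, because the RefSeq gene table given (fGasAcu3.hap1.1) holds 0 of these identifiers.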

Additional observations from a re-analysis of the deposited data

Results flagged for a closer look

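Among 22 sets of values, those of named genes and library measures by group, 1 had a fish far from the others, and chance gives about 1 in 20. Both replicate 5, the only fish of father M42 in its group, had 55155451 reads in the table, far above the 2244609 to 19835515 of the other fish with both exposures. Read totals entered this search untransformed, not on the log2 scale. In personal exposure only the totals reached 47411814. Without both replicate 5, or without its father, 764 genes had an unadjusted p below 0.05 and 0 were called.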

How the results depend on the processing

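Of 42 alternative fits, 41 called 0 genes between both exposures and personal exposure only. The exception was the fit of males only, with 36 genes called, 7 of them higher. It sets 2 sons of M15 against 4 males of 3 fathers, so father and exposure cannot be told apart in it. Over all 42 the 4 named genes kept their direction, which their choice in these fish largely fixes, and none passed the threshold. The number with an unadjusted p below 0.05 moved by over 1.5 times from 813 with no father block (1245), with 1 value per father (1288), in females only (403), in males only (2140), without both replicate 3 (484), without father M15 (519) and, added after seeing the data, without both replicates 2 and 3 (497). The cause was not tested. The smallest adjusted p was 0.0578 without the block and 0.0729 in limma-voom, both for ENSGACG00000013153. With sex as labelled it was 0.526. With each fish left out in turn, the test of the effect by sex called 0 to 11 genes, and other than 0 only without both replicate 1 (11 genes, 1408 at an unadjusted p below 0.05) and without both replicate 3 (2 genes, 510). Except for the fit without both replicate 7, these left-out fits of the effect by sex were added after seeing the data. The interaction called 0 genes in its 6 alternatives, with 741 genes below an unadjusted p of 0.05 without neither replicate 3 and 4137 without neither replicate 2. Its fits without neither replicates 1, 2, 4 and 5 were also added after seeing the data. The share of reads in the 10 top genes differed by 0.225 to 0.460 percentage points with single fish left out, and passed an exact p of 0.05 without personal only replicate 1, both replicate 2 or both replicate 4. No paired analysis was possible because the labels give no replicate numbers and fathers are nested in exposure. Few reads limit rare genes most.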
